A study of Mus musculus with 24 samples.

Results

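Regulatory T cells (Treg) of young mice are set here against the other CD4+ T cells of the same age, in the 12 of 24 libraries that came from young animals. The series measured the RNA of sorted CD4+ T cells on a NanoString panel of immune genes, an assay that counts RNA molecules directly with colour-coded probes and without amplification. The young Treg group (7 libraries) held cells sorted as CD4+CD25+GITR+, and the young non-Treg group (5 libraries) held cells sorted as CD4+CD25negGITRneg. Aged Treg and aged non-Treg (6 libraries each) gave 1 test of whether the young difference also held in old animals. Their libraries also entered the choice of tested genes and the model behind the young standard errors and adjusted p-values. All 4 groups were naive female C57BL/6 mice, pooled by age, at 2 to 3 months (young) or 22 to 24 months (aged). Each library drew on spleen cells mixed with cells of the eye- and lacrimal-gland-draining lymph nodes, so neither organ can be read on its own. Library titles carried 1 of 2 prefixes: DP20323 for 4 young Treg and 2 young non-Treg libraries, and DP182 for 3 of each. The labels do not state that each library came from a separate pool of mice, so a p-value here speaks of the spread among libraries alone, and that spread may be technical.

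Treg are CD4+ T cells that hold back other immune cells, and mice or people that lack them develop autoimmune disease. Their program is set by the transcription factor Foxp3. They carry much of the high-affinity interleukin-2 receptor, whose alpha chain is CD25, but make little interleukin-2 themselves, and they restrain other cells through CTLA-4, inhibitory cytokines and the breakdown of ATP to adenosine. The sort used the surface proteins CD25 and GITR and not Foxp3, and activated conventional T cells can also carry CD25 and GITR. In a bulk sample, fewer cells of a type and less RNA per cell cannot be told apart.

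Values below are normalised counts, which are 2 to the power of the deposited log2 values, and differences are young Treg minus young non-Treg on the log2 scale, ± standard error. Young Treg libraries held 453259 to 807392 counts in all and young non-Treg libraries 523970 to 1020252. A young Treg library had 326 to 372 genes at 20 or more, and a non-Treg library 312 to 342. A value below 20 was treated as too low to measure. For a gene that never reached 20 in 1 of the groups, the fold against 20 itself is printed, as "at least". Of 547 genes, 391 reached 20 in at least 5 of the 24 libraries and were tested with limma, and an adjusted p (Benjamini-Hochberg over the 391 genes) under 0.05 was called.

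Foxp3 and Il2ra matched the labels in all 12 young libraries, and of these only Il2ra encodes a protein used in the sort. Foxp3 had 9314 to 11125 (median 9973) in young Treg, against 119, 49.1, 67.6, 275 and 45.8 in young non-Treg. The lowest Treg library stood far above the highest non-Treg library, non-Treg replicate 4, whose value was 2.76% of the Treg median. For Il2ra, the CD25 gene, the values were 12684 to 17246 (median 14435) in young Treg and 334, 146, 129, 523 and 123 in young non-Treg. Non-Treg replicates 4 and 1 were again the highest of their group, at 3.63% and 2.32% of the Treg median. Cd4 was lower in Treg, with 3842 to 5197 (median 4848) against 6466, 6888, 5467, 5468 and 5748. The exact two-sided permutation p over the 792 ways to divide the 12 libraries was 0.002525 for each of these 3 genes, the smallest this test can give with 7 against 5 libraries. Il2ra follows from the CD25 sort and is a check, not a result. Both groups were sorted as CD4+, so Cd4 cannot check the labels. Tnfrsf18, the GITR gene, was not analysed here.

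Of the 391 tested genes, 187 were called higher in young Treg (47.8%) and 55 lower (14.1%). The median difference over all tested genes was 0.34, or 0.28 with bounds in place of fits where a group lay below 20. That excess of higher genes depended on how libraries were scaled to each other. Setting the median of the tested genes equal in all libraries (median centring) shifted every young difference by −0.75, which left 86 genes higher and 203 lower (29.8% of calls higher, against 77.3% as deposited). Centring on the housekeeping gene Abcf1 gave a shift of −0.12, with 152 higher and 66 lower. Equal library sums gave a shift of −0.27, with 132 higher and 107 lower, and quantile normalisation 104 higher and 155 lower. Median centring turned the direction of 71 of the 242 calls. A gene called in 1 direction as deposited and in the same direction after median centring, Abcf1 centring and quantile normalisation is described below as called under all 4 scalings. There were 81 such genes higher in young Treg (20.7%) and 55 lower (14.1%). These 55 are all of the genes called lower as deposited. Both centrings shifted the differences downward, and quantile normalisation moved their median from 0.34 to −0.19. For a lower gene, a call under all 4 scalings is therefore a weak check. Counts for the gene lists below are to be read beside these shares and the 47.8% and 14.1% called as deposited. Young Treg and young non-Treg libraries did not overlap for 167 of the 391 genes (42.7%), of which 130 were higher and 37 lower. Each of the 242 calls pointed the same way in DP20323 as in DP182.

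**Figure D1:**
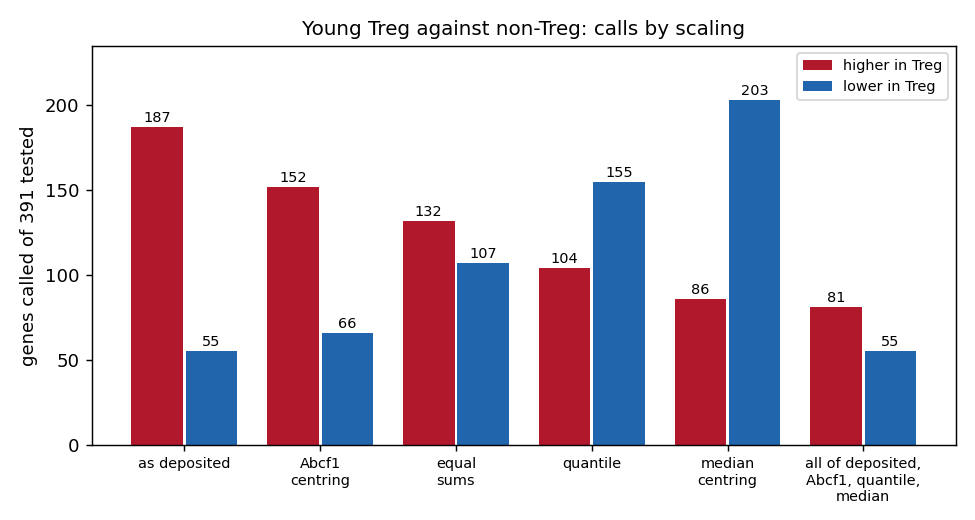
Number of the 391 tested genes called higher (red) and lower (blue) in young Treg than in young non-Treg (vertical axis, limma adjusted p under 0.05) under each scaling of the libraries (horizontal axis). The deposited scaling gave 187 higher and 55 lower, median centring 86 and 203, and 81 and 55 genes were called the same way under all 4 scalings of the last pair of bars.

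Every one of the 20 tested genes on the Treg identity list was called higher as deposited, 19 of them under all 4 scalings, with a median difference of 3.81 against 0.34 for all tested genes. This list was chosen with earlier results of these data known, so its direction is no independent evidence. It also holds Il2ra, which follows from the CD25 sort. Ikzf2 encodes Helios, a transcription factor of the Ikaros family that keeps Treg stable. It had 6888 to 11654 (median 7637) in young Treg and 351, 214, 299, 485 and 347 in young non-Treg, without overlap (4.78 ± 0.13, adjusted p = 7.14e-18). Ikzf4 encodes Eos, a family member that works with Foxp3 to silence genes. Its values were 1541 to 2202 (median 1758) in young Treg and 121, 97.4, 136, 201 and 128 in young non-Treg, again apart in every library (3.85 ± 0.15). Ikzf1, which encodes the founding member Ikaros, ran the other way at −0.999 ± 0.06. Its 4 Treg libraries titled DP20323 stood at 808 to 892 and its 2 non-Treg libraries of that series at 1619 and 1600.2, while the DP182 libraries read 1992 to 2359 in Treg and 4507 to 4688 in non-Treg. Treg were lower within each series, but the groups overlapped when the series were pooled. Ikzf3 (Aiolos) was higher in young Treg, with 1659.6 to 2540.2 (median 1997) against 787, 964, 1207, 1328 and 1221 (1.05 ± 0.10). Izumo1r, which encodes folate receptor 4, a surface marker of Treg in mice, had 6044 to 8955 (median 7798) in young Treg and 1364, 1168, 1074, 1148 and 1011 in young non-Treg (2.59 ± 0.09).

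**Figure D2:**
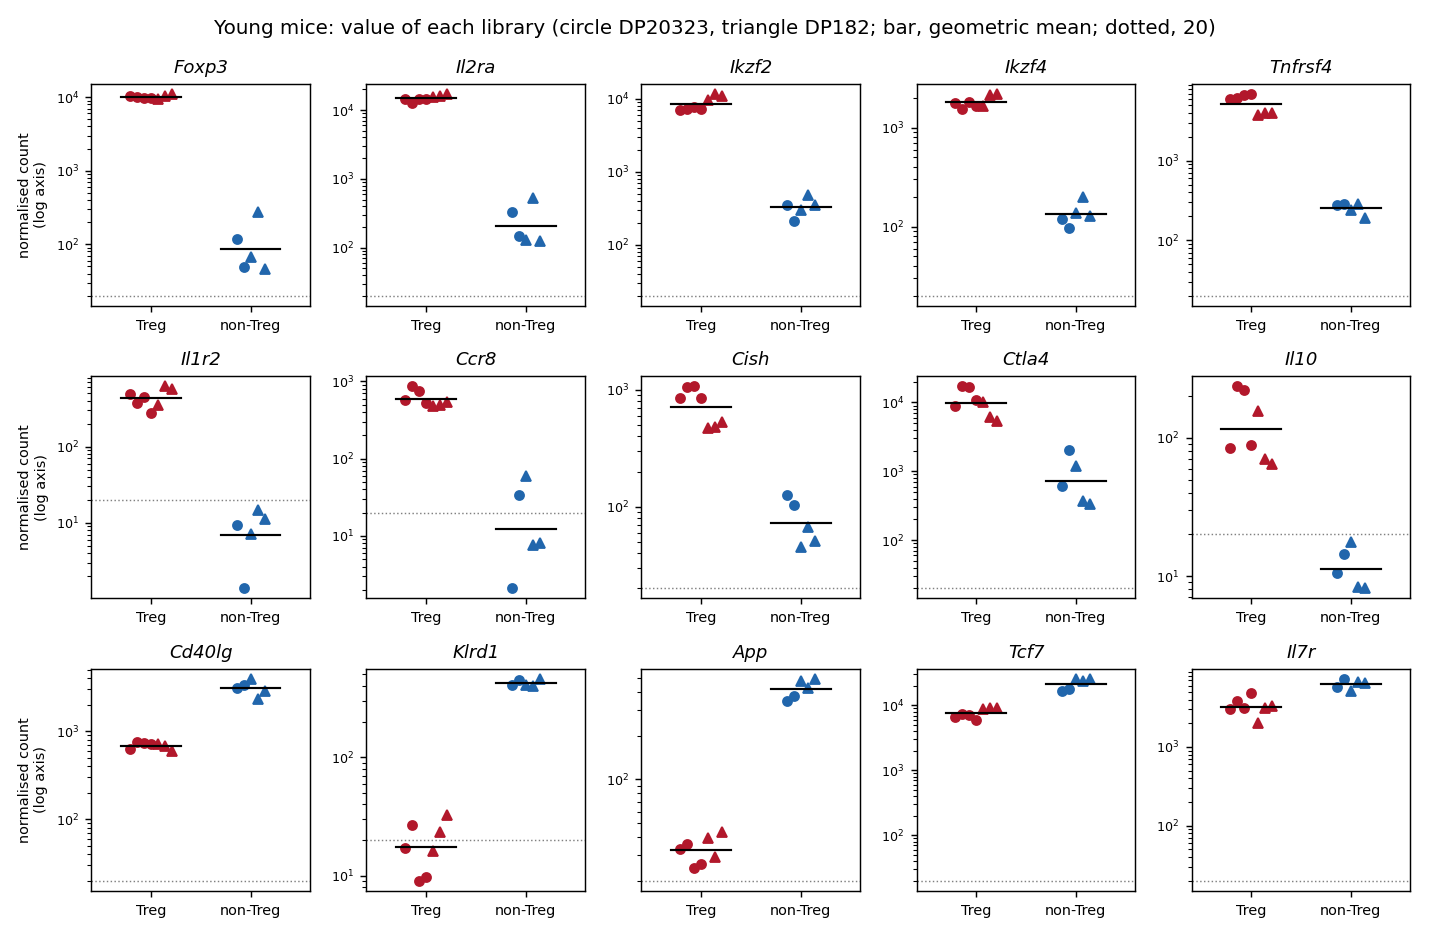
Normalised count of 15 genes (log axis) in each of the 7 young Treg (red, left) and 5 young non-Treg (blue, right) libraries, with circles for titles of series DP20323, triangles for DP182, bars at the geometric mean and a dotted line at 20. The 2 groups are apart in every panel, with Treg above in the first 10 panels and below in the last 5.

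The receptor for interleukin-2 is built from an alpha, a beta and a common gamma chain, and it signals through JAK1 and JAK3 to STAT5. Of 7 tested receptor genes of this family 4 were higher, 1 lower and 2 not called, with a median difference of 0.30. The 4 higher genes include Il2ra, which follows from the CD25 sort. Il2rb, the beta chain, had 14554 to 19759 (median 19138) in young Treg and 2327, 1387, 1237, 2299.9 and 1141 in young non-Treg (3.41 ± 0.16, adjusted p = 2.22e-14). Il7r, the receptor for the survival cytokine interleukin-7, was lower, at 2033 to 4862 (median 3136) in young Treg and 5766, 7345, 5202, 6592 and 6569 in young non-Treg (−0.98 ± 0.19). Neither gene overlapped between the groups. Downstream of the receptors, 10 of 15 Jak-STAT genes were higher as deposited, 1 lower and 4 not called, but only Cish and Jak1 were called under all 4 scalings. Cish is induced by STAT5 and feeds back on cytokine receptors. It read 476 to 1077 (median 848) in young Treg, against 125, 104, 45.3, 67.6 and 50.8 in young non-Treg (3.16 ± 0.16, adjusted p = 1.71e-13), and the groups were well apart. Jak1 was slightly lower in Treg (−0.30 ± 0.09), with overlapping libraries. Stat5a stood at 0.90 ± 0.10 and Jak3 at 0.93 ± 0.10, but neither was called after median centring (0.16 and 0.19).

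STAT5 binds DNA at palindromes of the form TTCNNNGAA, so the windows around the start sites of genes that differed were searched for these letters. RefSeq promoters of build GRCm38.p6, from 250 bases before to 50 after each start, were found for 59 of the 81 genes higher under all 4 scalings and for 42 of the 55 lower ones. The letters were present in a window of 16.9% of the higher genes and of 19% of the lower genes. Of all 27025 genes with a window 9.55% held them, and of the 298 tested genes with one 13.4%. Windows are printed for 3 genes that differ strongly here and hold the letters, on the forward strand of the mouse genome, with the matches in capitals. They lie at chr9:107296409-107296708 for Cish, chrX:7580233-7580532 for Foxp3 (the one of its 2 windows that holds a match) and chr1:40085843-40086142 for Il1r2.
Cish: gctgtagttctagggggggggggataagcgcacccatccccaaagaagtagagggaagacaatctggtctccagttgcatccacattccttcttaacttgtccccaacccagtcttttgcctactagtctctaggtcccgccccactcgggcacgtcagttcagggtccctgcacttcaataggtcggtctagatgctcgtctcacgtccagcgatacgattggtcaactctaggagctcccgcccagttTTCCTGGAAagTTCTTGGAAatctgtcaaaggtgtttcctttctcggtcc
Foxp3: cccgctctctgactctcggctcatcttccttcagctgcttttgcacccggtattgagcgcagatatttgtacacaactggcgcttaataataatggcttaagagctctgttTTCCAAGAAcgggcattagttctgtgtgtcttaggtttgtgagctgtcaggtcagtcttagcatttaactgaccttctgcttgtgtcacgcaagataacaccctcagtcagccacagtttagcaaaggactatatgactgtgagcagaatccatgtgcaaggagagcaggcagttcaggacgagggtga
Il1r2: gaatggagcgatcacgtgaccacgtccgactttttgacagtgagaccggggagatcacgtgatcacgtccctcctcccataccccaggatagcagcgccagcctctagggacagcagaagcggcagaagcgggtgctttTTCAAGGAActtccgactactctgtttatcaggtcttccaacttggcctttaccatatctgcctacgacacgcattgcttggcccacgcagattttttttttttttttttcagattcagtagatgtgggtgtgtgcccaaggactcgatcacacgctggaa
Cish holds 2 matches, which begin at bases 1 and 12 after its start site, and Foxp3 and Il1r2 hold 1 each, at 139 and 111 bases before it. Other short motifs were also counted on both strands. The forkhead letters TGTTTAC were in a window of 5.08% of higher genes and 4.76% of lower ones, against 4.03% of tested genes and 4.05% of all genes. NFAT letters (TGGAAA) were in 35.6% of higher and 26.2% of lower genes, against 27.9% of tested and 23.9% of all genes. The AP-1 letters TGANTCA were in 13.6% of higher and 4.76% of lower genes, against 11.7% of tested and 8.97% of all genes. The TCF-LEF letters CTTTGA were in 15.3% of higher and 16.7% of lower genes, against 18.5% of tested and 18.2% of all genes. These are counts of letters and not of bound sites.

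Receptors of the TNF family carry survival and costimulatory signals into T cells. Of 11 tested receptor genes 8 were higher in young Treg, none lower and 3 not called (5 higher under all 4 scalings, median difference 1.02). Tnfrsf4 (OX40) had 3803 to 6958 (median 5993) in young Treg and 279.8, 283, 241, 289 and 188 in young non-Treg (4.27 ± 0.12, adjusted p = 7.53e-18). Its Treg values split by title series, at 5993 to 6958 in DP20323 and 3803 to 3988 in DP182, with non-Treg far below both. Tnfrsf9 (4-1BB) read 191 to 330.1 (median 287) in young Treg and 31.4, 18, 11.8, 15.3 and 13.8 in young non-Treg (3.86 ± 0.14, or 3.51 with values under 20 set to 20). Tnfrsf1b, the TNF receptor that Treg use for expansion, had 1687 to 2417 (median 2069.5) in young Treg, against 366, 322, 333, 412 and 308 in young non-Treg (2.57 ± 0.09). Tnfrsf8 (CD30) lay below 20 in every non-Treg library and at 144 to 259.8 (median 202) in young Treg, at least 10.01-fold higher. Cd27 was called higher as deposited (0.54 ± 0.07) but not under all 4 scalings, and its sign turned after median centring (−0.20).

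Among the ligands of this family, 8 of 12 tested genes were higher, 2 were lower and 2 were not called (3 higher and 2 lower under all 4 scalings, median difference 0.62). Lta (lymphotoxin alpha) had 1323 to 1489.9 (median 1415) in young Treg and 481, 438, 379, 573 and 462 in young non-Treg (1.61 ± 0.09). Tnfsf11 (RANKL), the ligand that drives osteoclasts and lymph node formation, read 723 to 949.5 (median 856) in young Treg and 263, 182, 316, 205 and 201 in young non-Treg (1.88 ± 0.15). Tnfsf10 (TRAIL) was higher by 1.22 ± 0.12. The lower members were Cd40lg, the help signal from T cells to B cells, and Fasl, the death ligand. Cd40lg had 596 to 753 (median 714) in young Treg, against 3075, 3391, 3963, 2349 and 2899 in young non-Treg (−2.15 ± 0.15, adjusted p = 3.3e-11). Fasl read 74 to 179 (median 98.6) in young Treg and 265, 345, 526, 186 and 180.1 in young non-Treg (−1.32 ± 0.29), so its highest Treg value nearly touched the lowest non-Treg value. Tnf itself followed the title series more than the cell type. In DP20323 it was 129.8 to 219 in Treg and 149.9 and 115 in non-Treg, and in DP182 472 to 696 in Treg and 495 to 902 in non-Treg (difference 0.06 ± 0.19, not called; −0.68 after median centring). Of 19 adaptors and NF-kB genes 12 were higher as deposited and 2 lower, beside 47.8% and 14.1% of all tested genes. Under all 4 scalings, however, none was higher. The 2 lower calls, the adaptor Traf5 (−0.25 ± 0.06) and the kinase Ikbkb (−0.43 ± 0.11), held, as did every lower call of the panel. Ikbkb was not called without the title series term (adjusted p = 0.162).

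**Figure D3:**
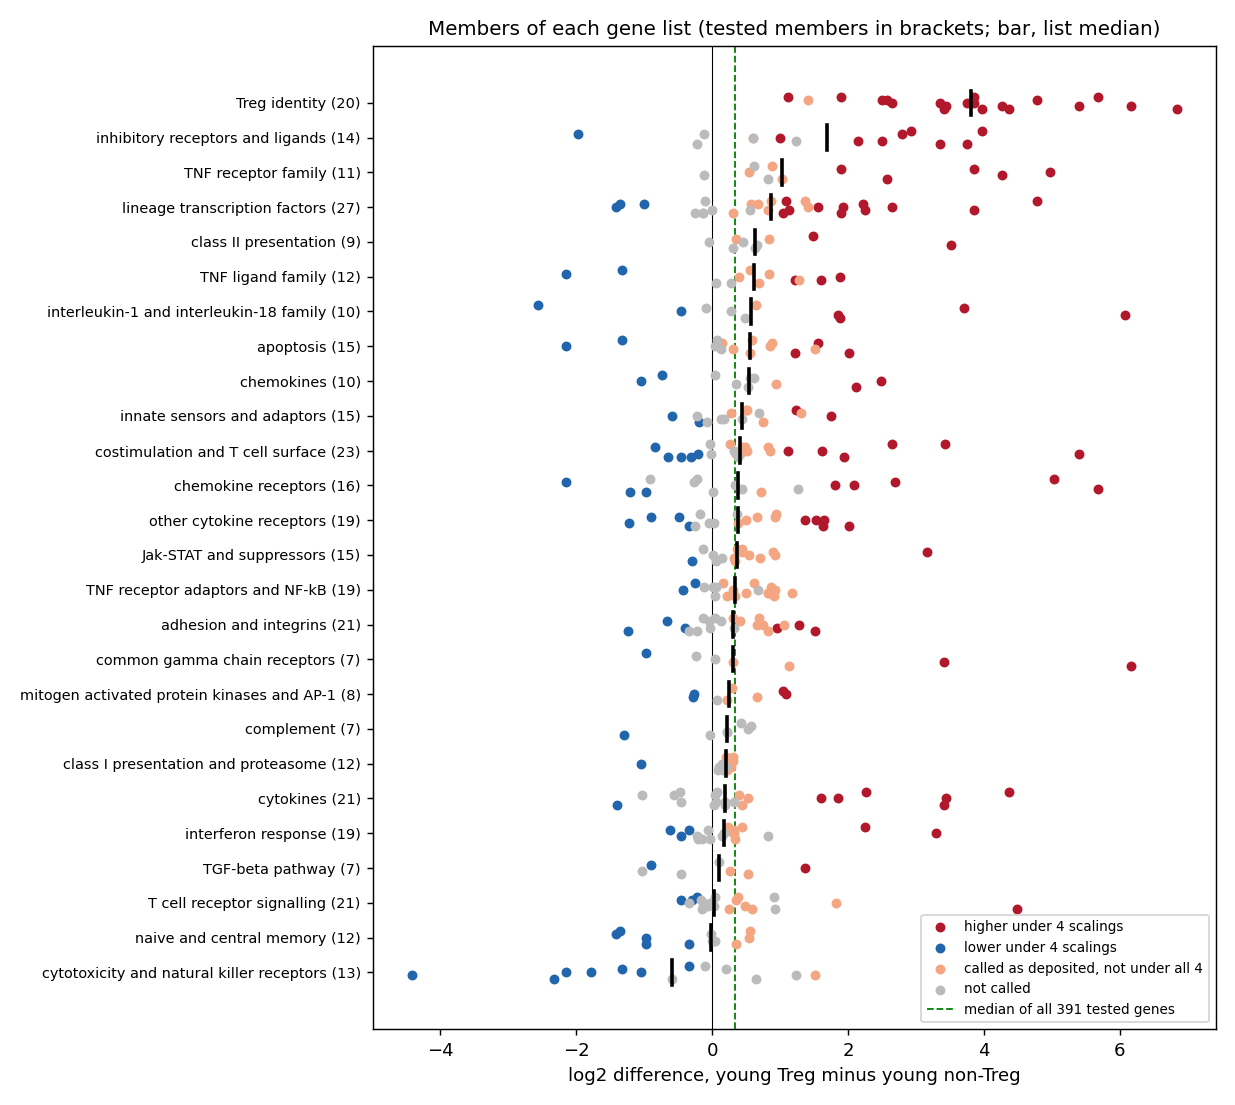
Log2 difference, young Treg minus young non-Treg (horizontal axis), of every tested member of each gene list with at least 5 tested members. A black bar marks the list median and a dashed line 0.34, the median of all 391 tested genes. Red genes are higher and blue genes lower under all 4 scalings. Orange genes are called as deposited but not under all 4, and grey genes are not called as deposited. Treg identity genes have the highest median (3.81) and cytotoxicity and natural killer receptor genes the lowest (−0.58).

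Inhibitory receptors and ligands had the second-highest median of the role lists with at least 5 tested members, 1.70, with 9 of 14 tested genes higher, 1 lower and 4 not called (8 higher and 1 lower under all 4 scalings). Tigit, an inhibitory receptor that competes for the ligands of CD226, had 695 to 1303 (median 1007) in young Treg and 84.9, 71.9, 46.6, 53.6 and 59 in young non-Treg (3.97 ± 0.16, adjusted p = 1.8e-15). Ctla4, which strips CD80 and CD86 from presenting cells, read 5404 to 17182 (median 10201) in young Treg and 606, 2038, 1211, 376 and 338 in young non-Treg (3.76 ± 0.42). Both groups were wide for Ctla4, with non-Treg replicate 2 the highest of its group, but no library crossed. Pdcd1 (PD-1) was at 703 to 1139.97 (median 908) in young Treg and 331, 139.6, 109, 210.4 and 270.4 in young non-Treg (2.15 ± 0.25). Both PD-1 ligand genes were higher too, Pdcd1lg2 by 2.80 ± 0.21 and Cd274 by 1.0 ± 0.11. The adenosine pathway was higher in both of its steps. Entpd1 (CD39), which cleaves ATP, had 245 to 448 (median 300.1) in young Treg and 40.9, 19.3, 26.2, 56.1 and 34.5 in young non-Treg (3.36 ± 0.22). Nt5e (CD73), which makes adenosine, read 2151 to 3211 (median 2385) in young Treg and 449, 401, 510.4, 546 and 501 in young non-Treg (2.50 ± 0.09). Lilrb4a, an inhibitory receptor, lay below 20 in every non-Treg library and was at least 5.24-fold higher in young Treg, which read 48.5 to 161 (median 113). Lair1, an inhibitory receptor for collagen, was the lower member, at 17.3 to 42.6 (median 23.9) in young Treg and 109, 100.2, 95.8, 123 and 134 in young non-Treg (−1.98 ± 0.40).

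Of 23 costimulatory and surface genes 14 were higher, 5 lower and 4 not called (median difference 0.41). Under all 4 scalings 6 were higher and 5 lower, beside 20.7% and 14.1% of all tested genes. Cd83, a surface molecule of activated lymphocytes and dendritic cells, had 1564 to 2112 (median 1959) in young Treg and 66, 30.4, 40.02, 54.8 and 33.3 in young non-Treg (5.41 ± 0.17, adjusted p = 1.13e-16). The tetraspanin Cd81 read 1739.7 to 2442 (median 2089) in young Treg and 335, 329.6, 384, 321 and 267 in young non-Treg (2.65 ± 0.13). Cd80, which encodes a ligand of CTLA-4 and CD28, was at 178 to 269 (median 208) in young Treg, against 29.3, 15.9, 13.1, 22.3 and 25.7 in young non-Treg (3.43 ± 0.20), and Cd86, the second such ligand, was higher by 1.94 ± 0.18. None of these genes overlapped between the groups. Icos (1.12 ± 0.14) and Slamf1 (1.62 ± 0.12) were also higher. Lower genes included the tetraspanin Cd53 (−0.84 ± 0.20), whose libraries overlapped, and the T cell antigen Thy1, with 4549 to 5841 (median 5233) in young Treg and 8374, 7873, 8839.6, 8904 and 9464 in young non-Treg (−0.65 ± 0.07).

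Of 10 tested genes of the interleukin-1 and interleukin-18 family 5 were higher, 2 lower and 3 not called (4 and 2 under all 4 scalings), close to the shares over all tested genes (47.8% and 14.1%). Its median difference was 0.57, or 0.22 with bounds. Il1rn, 1 of the higher genes, lost its call with values under 20 set to 20 (0.31, adjusted p = 0.112). Il1r2, a decoy receptor that binds interleukin-1 without signalling, had 274 to 622 (median 443) in young Treg and lay below 20 in all 5 non-Treg libraries (9.43, 1.38, 7.22, 14.7 and 11.3), which made it at least 21.6-fold higher. Its 1 match to the STAT letters is in the window printed above. Il1rl1 encodes ST2, the interleukin-33 receptor of tissue Treg, and read 169 to 277 (median 233) in young Treg and 14.7, 15.9, 17.7, 28.1 and 15.1 in young non-Treg (3.71 ± 0.27, 3.41 with values under 20 set to 20). The opposite was seen for Il1rl2, which encodes the receptor for interleukin-36: 12 to 35.5 (median 28.9) in young Treg, against 122, 109, 173, 165 and 182 in young non-Treg (−2.56 ± 0.19, adjusted p = 1.09e-10). Il18r1, the interleukin-18 receptor, was modestly lower at 846 to 1219.99 (median 952) in young Treg and 1264, 1339.7, 1438, 1539 and 1601 in young non-Treg (−0.46 ± 0.13).

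Of 19 other cytokine receptor genes 10 were higher, 4 lower and 5 not called (5 and 4 under all 4 scalings, median difference 0.38). The shares over all tested genes were 47.8% and 14.1% as deposited, and 20.7% and 14.1% under all 4 scalings. The interleukin-10 receptor gene Il10ra had 580.2 to 1003 (median 823) in young Treg and 285, 189, 247, 279 and 262 in young non-Treg (1.65 ± 0.16). Il12rb1, a chain shared by the receptors for interleukin-12 and interleukin-23, read 215 to 297 (median 239.9) in young Treg and 55.6, 47, 61.7, 111 and 67.1 in young non-Treg (2.01 ± 0.17). Its partner chains differed in direction. Il23r was at least 1.56-fold higher in young Treg, though the call was lost with values under 20 set to 20 (adjusted p = 0.0701) and without the title series term (adjusted p = 0.116). Il12rb2, of the Th1 receptor, was lower at −1.22 ± 0.43 (−0.83 with values under 20 set to 20), and that call was lost without non-Treg replicate 1 (−0.97, adjusted p = 0.0725). Il17ra was lower, with 2001 to 2637 (median 2160.4) in young Treg and 3010.2, 2981, 3239.8, 3402 and 3582 in young non-Treg (−0.49 ± 0.07). The receptor pair for TGF-beta was divided between its chains. Tgfbr1 had 1357 to 1738 (median 1398) in young Treg and 511, 532, 684, 548 and 554 in young non-Treg (1.37 ± 0.10), while Tgfbr2 had 2392 to 3104 (median 2663) in young Treg and 4121, 4982, 6022, 5539.6 and 5405 in young non-Treg (−0.90 ± 0.06). Neither chain overlapped between the groups.

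Of 21 tested cytokine genes 9 were higher, 1 was lower and 11 were not called (6 and 1 under all 4 scalings, median difference 0.20). As deposited, 47.8% of all tested genes were higher and 14.1% lower (20.7% and 14.1% under all 4 scalings). Ebi3, a subunit of interleukin-35 and interleukin-27, had 365 to 567 (median 465) in young Treg and 28.3, 20.04, 19.7, 29.97 and 17.6 in young non-Treg (4.36 ± 0.15, adjusted p = 3.49e-16). Il10, an inhibitory cytokine, read 64.6 to 237 (median 88.3) in young Treg and stayed below 20 in every non-Treg library (10.5, 14.5, 17.7, 8.29 and 8.16), a difference of at least 5.80-fold. Csf1, the macrophage growth factor, had 296 to 488 (median 352) in young Treg and 30.4, 33.9, 31.5, 46.5 and 42 in young non-Treg (3.41 ± 0.17). Lif, a cytokine of the interleukin-6 group, was higher by 2.27 ± 0.22. The Th2 cytokine Il4 was the lower gene, with all Treg libraries below 20 and non-Treg at 51.4, 20.7, 25.6, 45.9 and 19.5, at least 1.5-fold lower in Treg, and the call was lost with values under 20 set to 20 (−0.56, adjusted p = 0.216). Ifng, the Th1 cytokine, was at 69.98 to 174 (median 88.2) in young Treg and 88, 69.1, 140.4, 193 and 136 in young non-Treg, overlapping (0.03 ± 0.24, not called; −0.72 after median centring). Il21 stood at 26 to 79.2 (median 39.1) in young Treg and 103, 47.7, 52.5, 67.6 and 110.4 in young non-Treg (−0.57 ± 0.31, adjusted p = 0.115), but it was called lower after median centring (−1.31), quantile normalisation (−1.25) and equal sums (−0.84), and without non-Treg replicate 3 (−0.74, adjusted p = 0.0493). Il17a was near or below 20 in all young libraries, with 6.77 to 23.1 (median 12.9) in young Treg and 12.6, 8.29, 14.4, 15.3 and 11.9 in young non-Treg, and no fold is given.

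Chemokine receptors direct where T cells go. Of 16 tested, 6 were higher, 3 were lower and 7 were not called (5 and 3 under all 4 scalings, median difference 0.39). Ccr8, a receptor of Treg in tissues and tumours, had 483 to 868 (median 543) in young Treg and 2.10, 33.9, 59, 7.65 and 8.16 in young non-Treg (5.68 ± 0.62, or 4.42 with values under 20 set to 20). Only non-Treg replicates 2 and 3 reached 20. Ccr6, which binds CCL20 at mucosal surfaces, read 669 to 1020.2 (median 899.6) in young Treg and 32.5, 14.5, 28.9, 55.5 and 24.5 in young non-Treg (5.03 ± 0.31). Ccr4 had 216 to 270.2 (median 223) in young Treg and 53.5, 44.9, 65, 74.6 and 43.3 in young non-Treg (2.10 ± 0.15). Ccrl2, an atypical receptor, was higher by 2.70 ± 0.29 and the follicle-homing receptor Cxcr5 by 1.82 ± 0.20. Among the lower genes was Ccr7, which brings naive T cells into lymph nodes, at 3636 to 5731 (median 3997) in young Treg and 8599, 9519.8, 10411, 8033 and 8577 in young non-Treg (−0.97 ± 0.18). Cxcr6, of memory and innate-like T cells, had 58.2 to 229 (median 101) in young Treg and 976, 292, 447, 1154 and 521 in young non-Treg (−2.15 ± 0.48), and Gpr183, a receptor for oxysterols, had 660.1 to 1291 (median 875) in young Treg and 1343, 2354, 4461, 1524 and 2199 in young non-Treg (−1.22 ± 0.19). None of these 3 overlapped. Of 10 tested chemokine genes 3 were higher and 2, Ccl5 and Xcl1, lower (median difference 0.55, 0.29 with bounds). Both lower genes kept their direction but lost their call without any 1 of non-Treg replicates 1 and 4 and Treg replicates 6 and 7. Cxcl3, 1 of the higher genes, lost its call with values under 20 set to 20 (0.04, adjusted p = 0.889). Cxcl10 read 51.2 to 278 (median 96.4) in young Treg and 14.7, 13.8, 24.9, 68.2 and 30.7 in young non-Treg (2.48 ± 0.28), with overlap at non-Treg replicate 4. Ccl5 was lower (−1.04 ± 0.41, adjusted p = 0.0313), but that call was lost without any of non-Treg replicates 1, 2 and 4 and Treg replicates 6 and 7 (adjusted p = 0.0572 to 0.11).

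**Figure D4:**
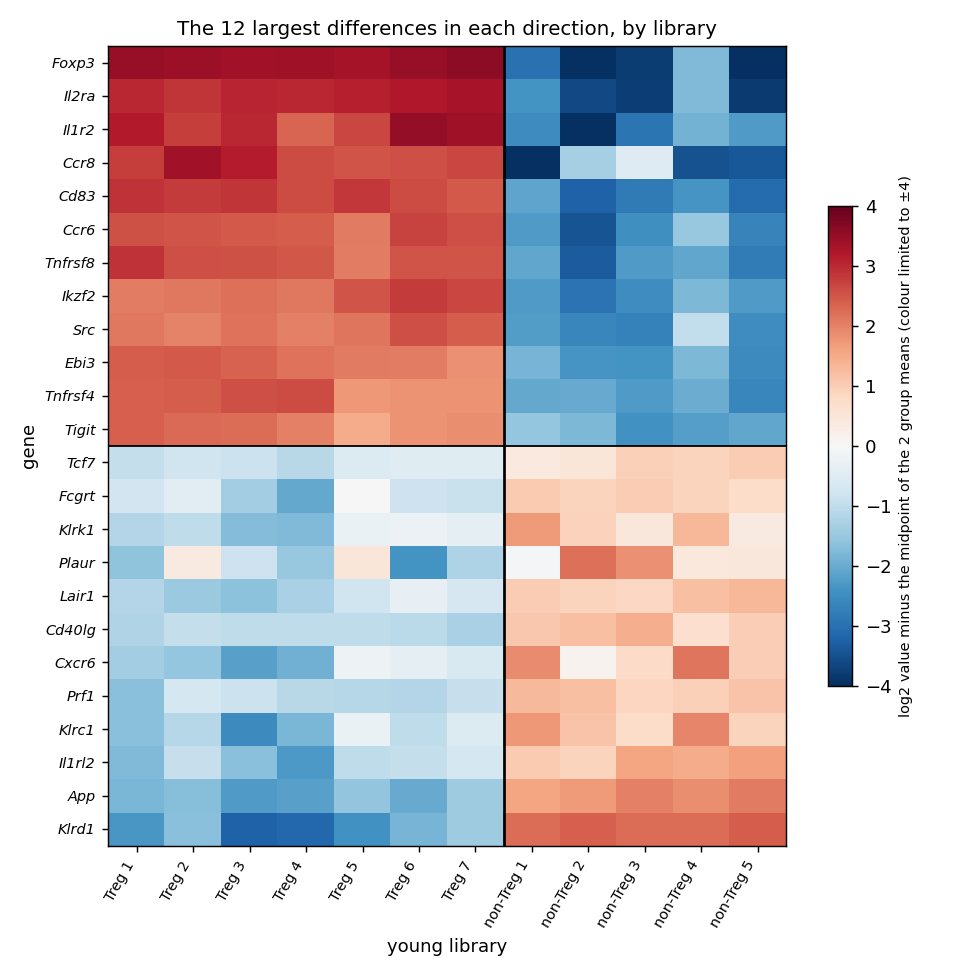
Log2 value of the 12 largest differences in each direction (rows) in the 7 young Treg and 5 young non-Treg libraries (columns), minus the midpoint of the 2 group means, with colours limited to 4 on each side. Non-Treg replicate 4 is the palest of its group for Foxp3, Il2ra, Ccr6 and Src, and Plaur is the row in which the groups overlap.

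Lineage transcription factors, which steer CD4+ cells to a fate, gave 18 of 27 tested genes higher, 3 lower and 6 not called (11 and 3 under all 4 scalings, median difference 0.87). Factors of more than 1 helper lineage were higher: Gata3 of Th2 cells by 1.13 ± 0.13 and Maf, of follicular helper and interleukin-10 producing cells, by 1.93 ± 0.16. Ahr, the aryl hydrocarbon receptor, was higher by 2.22 ± 0.17 and Nfil3 by 2.65 ± 0.43. Irf8 had 161 to 250.5 (median 192) in young Treg and 36.7, 34.5, 56.4, 61.8 and 37.6 in young non-Treg (2.26 ± 0.14), and Batf, a partner of IRF4 in effector Treg, had 1008 to 1593 (median 1229) in young Treg and 676, 737, 522, 481 and 481 in young non-Treg (1.08 ± 0.11). Irf4 was higher by 1.90 ± 0.33, but non-Treg replicate 3 (801) lay within the Treg range of 658 to 970.3. Pou2f2 (OCT2) read 1360.01 to 1886 (median 1411) in young Treg and 276, 264, 285, 414 and 403 in young non-Treg (2.31 ± 0.09).

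The lower factors were Ikzf1, above, and the pair that keeps T cells naive or memory-like. Tcf7 (TCF-1) had 5951 to 9277 (median 7409) in young Treg and 16904, 17949, 25157, 24008 and 25799.7 in young non-Treg (−1.42 ± 0.08, adjusted p = 1.56e-12). Lef1 read 2372 to 4387 (median 2954) in young Treg and 6089, 7245, 11953, 10343 and 10534 in young non-Treg (−1.35 ± 0.13). In both genes the non-Treg libraries of DP182 were the highest, and no library crossed between groups. Of 12 tested naive and central memory genes, which include these 2, 3 were higher, 5 lower and 4 not called, with a median difference of −0.01. Only the 5 lower calls (Tcf7, Lef1, Il7r, Ccr7 and Il6ra) held under all 4 scalings, as did every lower call of the panel. Bcl2, a survival factor, was higher as deposited (0.55 ± 0.11) but turned after median centring (−0.19). Cd44, a marker of antigen experience, was higher at 1074 to 1535 (median 1243) in young Treg and 746, 630.1, 690.2, 772 and 705 in young non-Treg (0.96 ± 0.08).

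Of 21 T cell receptor signalling genes 7 were higher, 3 lower and 11 not called, with a median difference of 0.03, and 1 higher and 3 lower held under all 4 scalings. The higher gene was Src, a tyrosine kinase, with 251 to 379 (median 278) in young Treg and 13.6, 10.4, 9.84, 31.9 and 11.3 in young non-Treg (4.49 ± 0.22, 3.82 with values under 20 set to 20). Only non-Treg replicate 4 reached 20. Among the lower genes, Cd247, the zeta chain, had 4997 to 5679.6 (median 5451) in young Treg and 6367, 6851, 6791, 6602 and 6729 in young non-Treg (−0.29 ± 0.05). The kinase Lck was at −0.22 ± 0.05 and the phosphatase Ptpn6 (SHP-1) at −0.46 ± 0.07. Mapkapk2, a kinase downstream of p38, was higher by 1.04 ± 0.09, while Mapk14, the gene of p38 alpha, was lower (−0.27 ± 0.08) and lost its call without the title series term (adjusted p = 0.189). Of 15 apoptosis genes 10 were higher and 2 lower (median difference 0.55), beside 47.8% and 14.1% of all tested genes. Under all 4 scalings 3 were higher and 2 lower, beside 20.7% and 14.1%. Casp1, the inflammatory caspase, had 364 to 766 (median 611) in young Treg and 279, 210.05, 95.1, 219 and 223 in young non-Treg (1.55 ± 0.18).

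The lowest list median belonged to cytotoxicity and natural killer receptor genes (−0.58). Of 13 tested, 1 was higher, 7 lower and 5 not called. The 7 lower calls held under all 4 scalings, as did every lower call of the panel. Klrd1, which encodes CD94, had 9.09 to 32.3 (median 17.2) in young Treg and 405, 448, 407, 402 and 459 in young non-Treg (−4.42 ± 0.59, −4.08 with values under 20 set to 20, adjusted p = 1.13e-06). Its partner Klrc1 (NKG2A) read 7.27 to 35.8 (median 19.2) in young Treg and 140.4, 93.3, 71.5, 166 and 79.1 in young non-Treg (−2.32 ± 0.60, −2.03 with values under 20 set to 20). Klrk1 (NKG2D) was at 17.4 to 50.4 (median 29.3) in young Treg and 194, 113, 81.4, 149 and 76.6 in young non-Treg (−1.78 ± 0.45). Treg libraries lay between 7.27 and 50.4 for these 3 receptors, and no library crossed. Klrc1 belongs to a family of close copies, and the series does not say how far its probe tells them apart. Prf1 (perforin) had 35.8 to 69.98 (median 52.3) in young Treg and 279, 260.5, 206, 219 and 254 in young non-Treg (−2.16 ± 0.22). Beside these receptors, the natural killer markers Klra1, Klra4 and Klra7 were below 20 in all young libraries, and Eomes, Gzma, Tyrobp and Klra8 were not called. The summed level of the 9 natural killer cell markers was 180 to 308 over the Treg libraries, against 688 to 833 over the non-Treg libraries. Klrd1 and Klrk1 are 2 of these 9, so the sum is not separate from their calls. The part of any natural killer cells in this result was not tested.

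Several genes with other roles also differed. App, the amyloid precursor protein gene, had 24.5 to 43.6 (median 33.1) in young Treg and 347, 377, 477, 425 and 494 in young non-Treg, the second-largest lower difference after Klrd1 (−3.60 ± 0.25, adjusted p = 3.51e-11). Fcgrt, the neonatal Fc receptor, was at 8.72 to 35.8 (median 20.2) in young Treg and 73.4, 65.6, 71.5, 66.3 and 59 in young non-Treg (−1.76 ± 0.34, −1.52 with values under 20 set to 20). Cd55, a brake on complement, read 226 to 468 (median 286) in young Treg and 644, 719.96, 1224, 842 and 1043 in young non-Treg (−1.29 ± 0.16). Plaur, the urokinase receptor, was lower (−1.82 ± 0.63) with overlapping libraries, and its call was lost without non-Treg replicate 2 (−1.35, adjusted p = 0.0791). Among higher genes, Abcb1a, a drug efflux pump, had 574 to 808 (median 793) in young Treg and 203, 216, 167, 233 and 177 in young non-Treg (1.96 ± 0.15). Phlpp1, a phosphatase that removes phosphate from AKT, read 550.1 to 869.95 (median 656) in young Treg and 126, 151, 226, 195 and 171 in young non-Treg (2.07 ± 0.11). Pdgfb was at least 3.12-fold higher in young Treg, and Cybb, the oxidase chain gp91phox, had 332 to 522 (median 436) in young Treg and 50.3, 34.5, 29.5, 45.3 and 40.8 in young non-Treg (3.42 ± 0.13).

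Markers of other cells were measured beside these results. The summed level of the 11 B cell markers was 352 to 539 over the Treg libraries, against 122 to 245 over the non-Treg libraries, but Cr2, a B cell complement receptor, lay below 20 in all 12 libraries, and Ms4a1 and Cd79a were not called. Of 7 tested markers 3 were higher (Cd79b, Cd22 and Cd40) and none lower. The largest part of the difference was in Cd79b, at 186 to 277 (median 230.04) in young Treg and 23.1, 15.2, 30.8, 43.4 and 25.7 in young non-Treg (3.23 ± 0.20). Dendritic cell markers summed to 672 to 957 over the Treg libraries, against 170 to 253 over the non-Treg libraries, from Irf8, Cd80 and Cd86, with Xcr1 and Batf3 below 20 in all young libraries. Of 9 tested class II presentation genes 4 were higher and 5 not called (2 higher under all 4 scalings, median difference 0.63). Cd74, the invariant chain, had 1109 to 1373 (median 1278) in young Treg and 113, 78.1, 84, 346 and 69.7 in young non-Treg (3.52 ± 0.31), and non-Treg replicate 4 stood out at 27.0% of the Treg median. H2-DMb2 was higher by 1.48 ± 0.27 (1.13 with values under 20 set to 20). H2-Aa, H2-Ab1 and H2-Eb1, which encode the class II chains themselves, were not called, with H2-Eb1 at 15.8 to 70.5 (median 20.7) in young Treg and 10.5, 13.1, 17.7, 48.5 and 15.7 in young non-Treg. Of 12 monocyte and macrophage markers 9 were below 20 in all young libraries, and Itgam was lower in Treg, at 10.6 to 27.5 (median 15.3) in young Treg and 37.7, 31.8, 67.6, 38.9 and 47.1 in young non-Treg (−1.24 ± 0.33, −0.93 with values under 20 set to 20). Cd8b1 was not called. All 3 tested plasma cell markers (Irf4, Prdm1 and Xbp1), which activated T cells also express, were higher as deposited, with Xbp1 turning after median centring. The part of other cells in these differences was not tested.

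The difference between young Treg and young non-Treg was then compared between the title series, in a model with a mean for each of the 8 combinations of group and series. Of 391 genes 1 was called (0.256%), and 7 had an unadjusted p under 0.05. It was Mbp, a gene best known for myelin, with a difference of 0.23 in DP20323 and −0.28 in DP182 (interaction 0.50 ± 0.10, adjusted p = 0.0381). That call was lost under 4 of the alternatives (median centring, quantile normalisation, no filter and a mean-variance trend). It was also lost on leaving out any 1 young library other than Treg replicate 1, Treg replicate 7 or non-Treg replicate 4.

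Whether the young difference held in old animals was tested as the young difference minus the aged difference, which share no library. This was positive for 125 genes (32%) and negative for 31 (7.93%). Median centring shifted it by −0.54, which gave 57 positive and 161 negative, so the balance of signs depended on scaling. Foxp3 itself had nearly equal differences, 6.85 in young and 6.99 in aged mice (−0.15 ± 0.48, adjusted p = 0.839). The 12 genes below were called in the same direction under every alternative that could be run. The same held without aged Treg replicates 4 and 6, which were left out after the data were seen. Both carry raised markers of other cells. In aged Treg replicate 4, 520 of the 547 genes reached 20, and in replicate 6, 418. The other aged Treg libraries had 360, 397, 350 and 372 such genes. The rise in replicate 4 reached much of the panel, and its cause was not tested.

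Ikzf2 had a Treg difference of 4.78 in young and 2.30 in aged mice (2.48 ± 0.18). The Treg medians were 7637 in young and 14354 in aged mice, and the non-Treg medians 347 in young and 2864 in aged mice. Il2rb also had a larger difference in young mice (2.35 ± 0.22), with Treg medians of 19138 in young and 17829 in aged mice, and non-Treg medians of 1387 in young and 8051 in aged mice. So did Csf1 (2.65 ± 0.24) and Pou2f2 (1.81 ± 0.12), with lower medians in young than in aged non-Treg. Cybb had lower medians in young than in aged mice in both cell types, and its Treg difference was larger in young mice (2.03 ± 0.18). Ikzf3 was called in opposite directions at the 2 ages, 1.05 ± 0.10 in young and −1.10 ± 0.10 in aged mice (2.15 ± 0.14). In all, 22 of the 391 tested genes were called opposite ways at the 2 ages under the deposited scaling. That number was not recounted under other scalings, and median centring turned the direction of 71 of the 242 young calls.

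Ccr8 had the largest negative value of these 12 genes (−4.75 ± 0.87), but aged non-Treg lay below 20 in all 6 libraries, so its size is uncertain. The Treg medians were 543 in young and 1656 in aged mice. Cd81 (−1.55 ± 0.18) and Ctss, the class II protease cathepsin S (−0.59 ± 0.09), were negative, and young Treg stood below aged Treg in the median. For Cd81 the medians were 2089 in young Treg and 7262 in aged Treg, and for Ctss 4765 in young Treg and 7793 in aged Treg. Il18r1 was lower in Treg than in non-Treg in young mice and higher in aged mice (−0.46 and 1.27, −1.73 ± 0.18). H2-Eb1 (−2.87 ± 0.59) and C1ra (−1.96 ± 0.27) were low in young Treg, with a median for H2-Eb1 of 20.7 in young Treg and 430.3 in aged Treg. For C1ra the medians were 10.6 in young Treg and 60.6 in aged Treg. C1ra lay below 20 in all 12 young libraries and most H2-Eb1 values of young mice were near or below 20, so the size of both differences is uncertain, from −2.50 to −1.42 for C1ra and from −3.82 to −1.72 for H2-Eb1 over the alternatives.

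**Figure D5:**
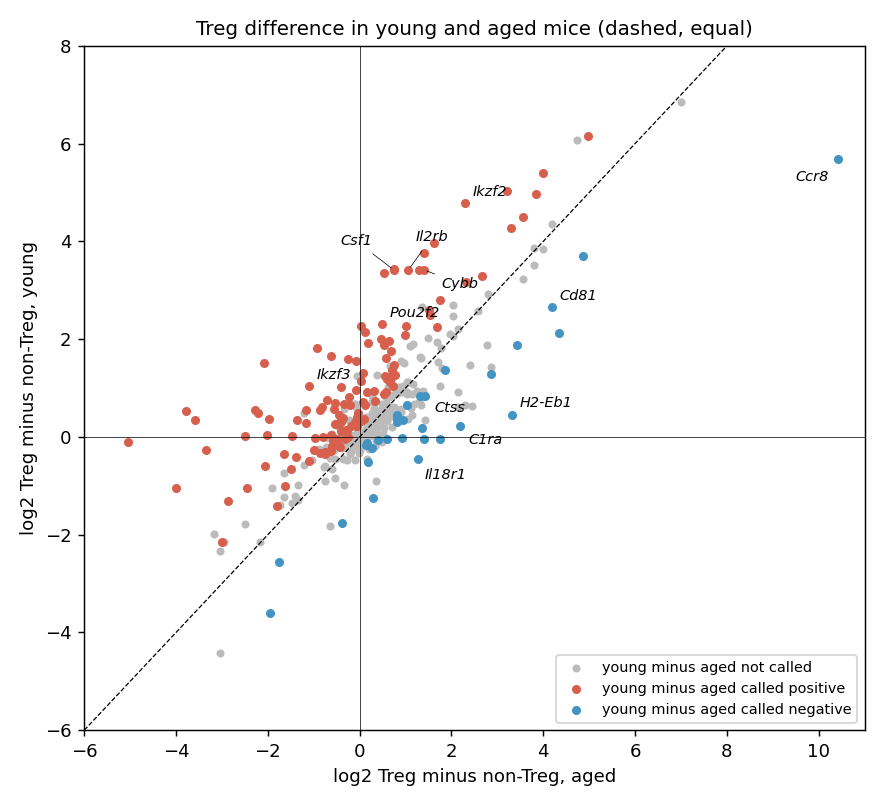
Log2 difference between Treg and non-Treg in young (vertical axis) and aged mice (horizontal axis) for the 391 tested genes, with a dashed line where both are equal. Red genes (125) lie above the line and blue genes (31) below it by the limma test of the difference of differences, and the 12 named genes have the smallest adjusted p in each direction.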

How the data were processed

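RNA of sorted CD4+ T cells was counted on a NanoString mouse panel. The authors deposited log2 values per gene and library, and in every library all linear values below 1000 are whole multiples of 1 step within a tolerance of 0.02, the pattern of counts times 1 factor per library. How the factor was set, and whether background was taken off, is not given in the sources used here. No other processing was recorded in the labels.

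Genes at 20 or more in at least 5 of the 24 libraries (391 of 547) were fitted with limma 3.58.1 in R 4.3.3, with a mean for each of the 4 groups and a term for title series, and p-values were adjusted by Benjamini-Hochberg at 0.05. The 24 libraries share 1 estimate of spread. A count of 20 normalised units stands for 12.4 to 22.0 counted molecules in a young Treg library, against 19.1 to 31.9 in a non-Treg one, so values near 20 carry large counting error. Tables and figures used Python 3.11.15. The alternatives were other scalings, floors, a pseudocount of 10, no filter, no title series term, each series alone, young libraries only, sample weights, a mean-variance trend and leaving out each young library. Leaving out aged Treg replicate 4, or 4 and 6, was added after the data were seen.

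The comparison and the gene lists were chosen with earlier results of these data known. Named genes were Foxp3, Il2ra and Cd4, and the 12 largest differences in each direction called under 4 scalings. Others were up to 3 members per direction of each role list, the leading age and series differences, and 11 listed genes. These rules named 109 genes in all. A further 21 were named after their values were seen. Tnfrsf18 is not reported here. Promoters came from RefSeq.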

Additional observations from a re-analysis of the deposited data

Results flagged for a closer look

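Within groups of 4 or more libraries, a single library stood far from the others for 12 of the 245 gene and group pairs examined, and chance alone flags about 1 in 20. Treg replicate 5 was low for Ccr6 (669), Casp1 (364), Jak3 (1894.5) and Abcb1a (574), and high for H2-Eb1 (70.5) and Irf4 (970.3). Treg replicate 6 was high for Tgfbr1 (1738). Non-Treg replicate 3 was high for Tgfbr1 (684) and low for Casp1 (95.1) and Ptpn6 (2824). Non-Treg replicate 4 was high for Src (31.9) and non-Treg replicate 1 low for Ddx58 (1936).

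The Treg difference differed between young and aged mice by the limma test of the difference of differences, positively for 125 genes and negatively for 31. Young minus aged, the values were 2.48 for Ikzf2, 2.35 for Il2rb, 2.65 for Csf1, 2.15 for Ikzf3, 1.81 for Pou2f2 and 2.03 for Cybb. They were −4.75 for Ccr8, −1.55 for Cd81, −1.73 for Il18r1, −1.96 for C1ra, −0.59 for Ctss and −2.87 for H2-Eb1. Between title series, 1 gene differed, Mbp, by 0.50.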

How the results depend on the processing

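Of 3376 values computed for 130 named genes under 26 settings, 3274 kept their direction and side of the threshold, 59 lost a call, 9 gained one and 34 turned. Leaving out any single young library kept 228 to 238 of the 242 calls, and no call turned. Counts moved mainly with scaling. Genes higher in young Treg numbered 86 under median centring and 104 under quantile normalisation. Genes lower numbered 203, 155 and 107 under median centring, quantile normalisation and total scaling, and 33 in DP182 alone. Leaving out 1 young library gave 181 to 189 higher and 51 to 55 lower. With young libraries only, and so no aged ones in the fit, there were 198 higher and 66 lower. Without aged Treg replicate 4 there were 193 higher and 61 lower, and without aged Treg replicates 4 and 6 together 196 higher and 63 lower. The young minus aged value was called positive for 57 genes under median centring, 83 on Abcf1 and 68 in DP182 alone (117 to 128 without 1 young library, 136 without aged Treg 4 or without 4 and 6). It was called negative for 161 under median centring, 78 under quantile normalisation, 60 under total scaling, 20 without the title series term, 15 in DP20323 alone and 10 in DP182 alone (24 to 30 without 1 young library, 33 without aged Treg 4 or without 4 and 6). The count of genes differing between title series was 0 under median centring, quantile normalisation, no filter and a mean-variance trend, and 0 to 1 without 1 young library. The cause of these moves was not tested beyond the scaling shifts given above.

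Turned values were as follows. Ifng gave −0.72 under median centring, −0.10 on Abcf1, −0.83 under quantile normalisation, −0.25 under total scaling, −0.20 without the title series term, −0.068 in DP182, −0.034 in young libraries only, −0.092 with weights, and −0.049 to 0.13 without 1 young library. Tnf gave −0.68, −0.058, −0.63, −0.21 and −0.26 under the first 5 of these, −0.091 in DP182, and −0.063 to 0.22 without 1 young library. Il17a gave −0.55 under median centring, −0.48 under quantile normalisation, −0.079 under total scaling and without the series term, and −0.22 in DP20323. C1ra gave −0.53, −0.31 and −0.056 under median centring, quantile normalisation and total scaling, and H2-Eb1 −0.29 and −0.079 under the first 2. Cd27 gave −0.20 and Bcl2 −0.19 under median centring. Mbp gave 0.23 in DP20323 and −0.11 to 0.018 without 1 young library. No paired analysis was possible because the labels give the libraries no replicate numbers.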

Other observations

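Interferon response genes had a median difference of 0.18 over 19 tested, with 8 higher, 3 lower and 8 not called (2 and 3 under all 4 scalings). Beside them, 47.8% of all tested genes were higher and 14.1% lower (20.7% and 14.1% under all 4 scalings). Irf5, a transcription factor of innate signalling, had 204 to 253 (median 242) in young Treg and 22, 19.3, 16.4, 34.4 and 31.4 in young non-Treg (3.29 ± 0.14, limma adjusted p = 1.17e-14). Ddx58, the RNA sensor RIG-I, was lower, at 1257 to 1595 (median 1353) in young Treg and 1936, 2239, 2340.3, 2224 and 2219 in young non-Treg (−0.62 ± 0.06), and so was Ifit2 (−0.46 ± 0.09). Irf7 was lower by a small amount (−0.35 ± 0.10) and was not called without the title series term (adjusted p = 0.236). Of 15 innate sensor and adaptor genes 7 were higher and 2 lower (2 and 2 under all 4 scalings, median difference 0.44). Their calls as deposited lay near the shares over all tested genes. Tlr4, the endotoxin receptor, lay below 20 in every non-Treg library and at 19.1 to 45.1 (median 38.8) in young Treg, at least 1.70-fold higher. Irak2, a kinase of that pathway, was higher (1.24 ± 0.09) and the adaptor Card9 lower (−0.59 ± 0.18).

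Of 12 class I presentation and proteasome genes 6 were higher as deposited, none under all 4 scalings. H2-Q10 was lower, with 34.6 to 66.6 (median 51.7) in young Treg and 110.1, 184, 73.5, 92.5 and 94.8 in young non-Treg (−1.05 ± 0.30), though it belongs to a family of close copies and its probe may not tell them apart. Among 21 adhesion genes 10 were higher and 3 lower (3 and 3 under all 4 scalings, median difference 0.31, 0.05 with bounds). The calls as deposited lay close to the shares over all tested genes (47.8% and 14.1%). Icam1, a ligand of the integrin LFA-1, had 356 to 521 (median 425) in young Treg and 211, 205, 147, 189 and 148 in young non-Treg (1.27 ± 0.11). A related ligand, Icam2, ran the other way, at 1053 to 1168 (median 1132) in young Treg and 1802, 1839.98, 1727, 1586 and 1728 in young non-Treg (−0.66 ± 0.07). Neither Icam1 nor Icam2 overlapped between the groups. Icam5, another of the 3 genes higher under all 4 scalings, lost its call with values under 20 set to 20 (0.06, adjusted p = 0.731). Of 7 complement genes none was higher and 1, Cd55, was lower. Both tested autophagy genes were not called.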
